A study of Mus musculus with 12 samples.

Results

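Interferon-stimulated genes were followed as a set of 38 named mouse genes, from Isg15, the Ifit, Oas and Mx families and the transcription factors Irf7, Irf9 and Stat2 to the interferon-inducible GTPases. They were picked by symbol with earlier results of these data known, and all 38 were found among the 55416 gene identifiers of the deposited tables. All 38 also passed the filter on low counts that left 17130 genes for testing. They are ordered below by what their products are known to do. Mx2 is listed as a polymorphic pseudogene in the gene annotation used.

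Interferons are secreted proteins that warn neighbouring cells of infection. Type I interferons act through the receptor chains Ifnar1 and Ifnar2 and the kinases Jak1 and Tyk2 to bring Stat2 and Irf9 into a complex that binds the interferon-stimulated response element (ISRE) in front of target genes, while interferon gamma acts mainly through a different element, called GAS. The targets include sensors of viral RNA, proteins that block viral translation or release, and the factor Irf7, which feeds back on interferon production. In skin, imiquimod engages Toll-like receptor 7, a sensor of single-stranded RNA in endosomes that can induce type I interferon, above all in plasmacytoid dendritic cells.

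Bulk mRNA was sequenced from the ear skin of C57BL/6 mice aged 8 to 12 weeks, labelled day 6, in 12 libraries that form 4 groups of 3. IMQ_GW3965 received imiquimod and the liver X receptor agonist GW3965 at 20 mg/kg. IMQ_Troglitazone received imiquimod and troglitazone, an agonist of the nuclear receptor PPARγ, at 150 mg/kg. IMQ_Veh received imiquimod and the DMSO vehicle. UTX_Veh also carries the vehicle in its label, but no imiquimod is named there and the labels do not spell out UTX. Imiquimod was applied daily to the back of the ears as 20.8 mg of Aldara cream holding 5% of the drug. Agonists or vehicle were injected into the peritoneum once per day from day 3, and skin was taken 1 day after the last application. Nothing in the labels ties each library to its own mouse; the p-values therefore reflect variation among libraries that could in part be technical. Keratinocyte markers, which define skin, were present in all 12 libraries, with sums of 57200 to 74680 CPM in IMQ_GW3965, 55410 to 65260 CPM in IMQ_Troglitazone, 50080 to 72290 CPM in IMQ_Veh and 22450 to 25870 CPM in UTX_Veh. The comparisons below ask how the interferon-stimulated genes differ with imiquimod and, under imiquimod, with each agonist.

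The stretch of DNA around the start site shows which members carry the letters of the ISRE. RefSeq windows (build GRCm38.p6, 250 bases before the start site to 50 after it) were at hand for 28 of the 38 members, 32 windows in all. The ISRE letters, taken as GAAA, any 2 bases and GAAA again and searched on both strands with overlapping matches allowed, were in a window of 18 of these 28 members, against 3.99% of all 27025 genes with a window. All 5 windowed GTPase genes and both windowed RNA sensor genes had them, as did 3 of 4 Ifit genes and 3 of 5 Oas genes. The GAS letters TTCNNNGAA, which read the same on both strands, were in a window of 6 of the 28 members, against 9.55% of all genes. A match is a description of the sequence and not evidence of binding, and the 2 motifs do not share letters in the windows shown. Oas2, Mx1, Mx2, Usp18, Dhx58, Zbp1, Rtp4, Parp14, Ifi27l2a and Iigp1 have no window in the table used.

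Windows of 6 members that the results below return to are printed here 5′ to 3′ in the direction of transcription, with matches to either motif in capitals; overlapping matches run together. Isg15 is shown for a run of 3 ISRE matches, Oas1a as a gene that rose in IMQ_Veh against UTX_Veh, Ifit3 as a gene that fell there only when IMQ_Veh replicate 3 was left out, Ddx58 and Stat2 as genes that fell under both agonists relative to UTX_Veh, and Igtp as a GTPase gene with both motifs.
Isg15 (chr4:156200769-156201068, minus strand): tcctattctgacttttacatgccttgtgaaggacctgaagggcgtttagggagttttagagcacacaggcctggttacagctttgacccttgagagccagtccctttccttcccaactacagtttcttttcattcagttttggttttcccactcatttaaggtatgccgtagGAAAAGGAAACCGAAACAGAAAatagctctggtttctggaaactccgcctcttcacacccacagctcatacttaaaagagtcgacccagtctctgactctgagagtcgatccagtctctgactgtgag
Ifit3 (chr19:34583279-34583578, plus strand): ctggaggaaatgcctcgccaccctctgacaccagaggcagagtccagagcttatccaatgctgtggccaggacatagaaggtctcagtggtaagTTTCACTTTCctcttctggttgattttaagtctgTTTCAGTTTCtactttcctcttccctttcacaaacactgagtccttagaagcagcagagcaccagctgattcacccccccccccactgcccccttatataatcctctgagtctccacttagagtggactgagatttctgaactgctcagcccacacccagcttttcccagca
Oas1a (chr5:120907476-120907775, minus strand): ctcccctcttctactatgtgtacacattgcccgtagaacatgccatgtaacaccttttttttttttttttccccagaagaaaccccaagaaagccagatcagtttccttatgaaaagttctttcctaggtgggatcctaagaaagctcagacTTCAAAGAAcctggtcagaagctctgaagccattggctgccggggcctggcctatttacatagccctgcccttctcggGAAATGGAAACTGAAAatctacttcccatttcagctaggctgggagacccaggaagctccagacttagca
Ddx58 (chr4:40239776-40240075, minus strand): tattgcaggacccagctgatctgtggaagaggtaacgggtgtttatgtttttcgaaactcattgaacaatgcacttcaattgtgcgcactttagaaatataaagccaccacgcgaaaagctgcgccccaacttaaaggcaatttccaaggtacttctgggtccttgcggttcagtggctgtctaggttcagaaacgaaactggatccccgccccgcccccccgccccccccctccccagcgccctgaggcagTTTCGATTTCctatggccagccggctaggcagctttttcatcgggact
Stat2 (chr10:128270248-128270547, plus strand): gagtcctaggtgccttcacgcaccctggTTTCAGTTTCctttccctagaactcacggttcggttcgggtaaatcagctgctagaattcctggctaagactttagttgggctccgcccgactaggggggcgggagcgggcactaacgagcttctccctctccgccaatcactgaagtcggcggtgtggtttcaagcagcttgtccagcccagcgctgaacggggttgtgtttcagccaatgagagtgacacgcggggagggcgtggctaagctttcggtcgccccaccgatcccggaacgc
Igtp (chr11:58199306-58199605, plus strand): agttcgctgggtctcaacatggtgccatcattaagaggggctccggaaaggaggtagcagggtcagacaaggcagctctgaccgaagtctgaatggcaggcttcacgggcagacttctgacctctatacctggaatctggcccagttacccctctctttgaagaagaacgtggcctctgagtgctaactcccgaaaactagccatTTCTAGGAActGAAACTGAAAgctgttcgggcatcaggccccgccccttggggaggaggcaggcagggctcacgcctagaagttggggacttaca
In Isg15 the 3 ISRE matches begin at positions -78, -72 and -66 relative to the start site. Those of Oas1a begin at -20 and -14, with a GAS match at -98. Ifit3 has its ISRE matches at -156 and -122 and Stat2 at -222, in both genes on the opposite strand. The match of Ddx58, also on the opposite strand, begins at position 2. Igtp has an ISRE match at -34 and a GAS match at -45.

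Most members were expressed at a low level in all groups. Per length and depth, in the deposited TPM (transcript abundance scaled to length and depth), their group means ran between 0.303 and 153.5 TPM in IMQ_GW3965, between 0.187 and 123.7 TPM in IMQ_Troglitazone, between 0.490 and 92.4 TPM in IMQ_Veh and between 0.387 and 140.6 TPM in UTX_Veh. Ifi27l2a, a small interferon-induced gene, was highest in all 4 groups. In IMQ_Veh it averaged 92.4 ± 78.7 TPM and in UTX_Veh 140.6 ± 29.0 TPM (SD, n = 3 each). Ifi35 followed in IMQ_Veh with 18.4 ± 3.66 TPM, against 22.1 ± 0.514 TPM in UTX_Veh. Irf9, the DNA-binding part of the type I complex, averaged 16.9 ± 2.16 TPM in IMQ_Veh and 23.4 ± 1.38 TPM in UTX_Veh, and did not differ from Ifi35 beyond their spread. Ifi44 was last in both, at 0.490 ± 0.451 TPM in IMQ_Veh and 0.387 ± 0.244 TPM in UTX_Veh. Total estimated counts were 18242074 to 25641602 per library. All levels below are CPM (counts scaled to library size) with edgeR's TMM method, which suit comparisons of a gene across libraries and not of a gene with another. In bulk tissue, fewer cells of a type and less RNA per cell cannot be told apart.

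IMQ_Veh replicate 3 stood apart from the other libraries in these genes. The 38 members summed to 250.6, 173.4 and 529.3 CPM in IMQ_Veh replicates 1, 2 and 3. They summed to 244.1, 235.6 and 354.7 CPM in IMQ_GW3965, to 238.4, 235.9 and 188.7 CPM in IMQ_Troglitazone and to 296.8, 327.9 and 270.8 CPM in UTX_Veh. Replicate 3 was the highest IMQ_Veh library for 37 of 38 members, while it was the highest for 38.4% of all tested genes. It was at least 2-fold above the mean of replicates 1 and 2 for 32 members, against 9.86% of all genes. Because the members were chosen with earlier results of these data known, these counts describe the library and test nothing. The exception was Irf9, with 27.3, 30.2 and 30.1 CPM in IMQ_Veh. Replicate 2 was the lowest for 33 members, against 35.8% of all genes. The size of the gap differed between genes, and the roles overlapped in it, with no test made between them (the plot of summed levels by role). Replicate 3 over the mean of the other 2 had a median ratio of 6.91 for the 4 Ifit genes, 4.66 for the ISG15 system, 3.94 for antiviral effectors, 3.53 for the Oas family, 2.65 for other members, 2.45 for the GTPases, 2.28 for nucleic acid sensors and 1.29 for the transcription factors. The ranges were wide, from 1.05 to 3.67 for the transcription factors (Irf7 highest), from 2.46 to 6.69 for the Oas family and from 4.65 to 10.8 for the Ifit genes. Over all members it was 3.44, against 0.989 over all tested genes. The labels give no reason to split the group, so results that rest on IMQ_Veh are given with and without replicate 3.

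**Figure D1:**
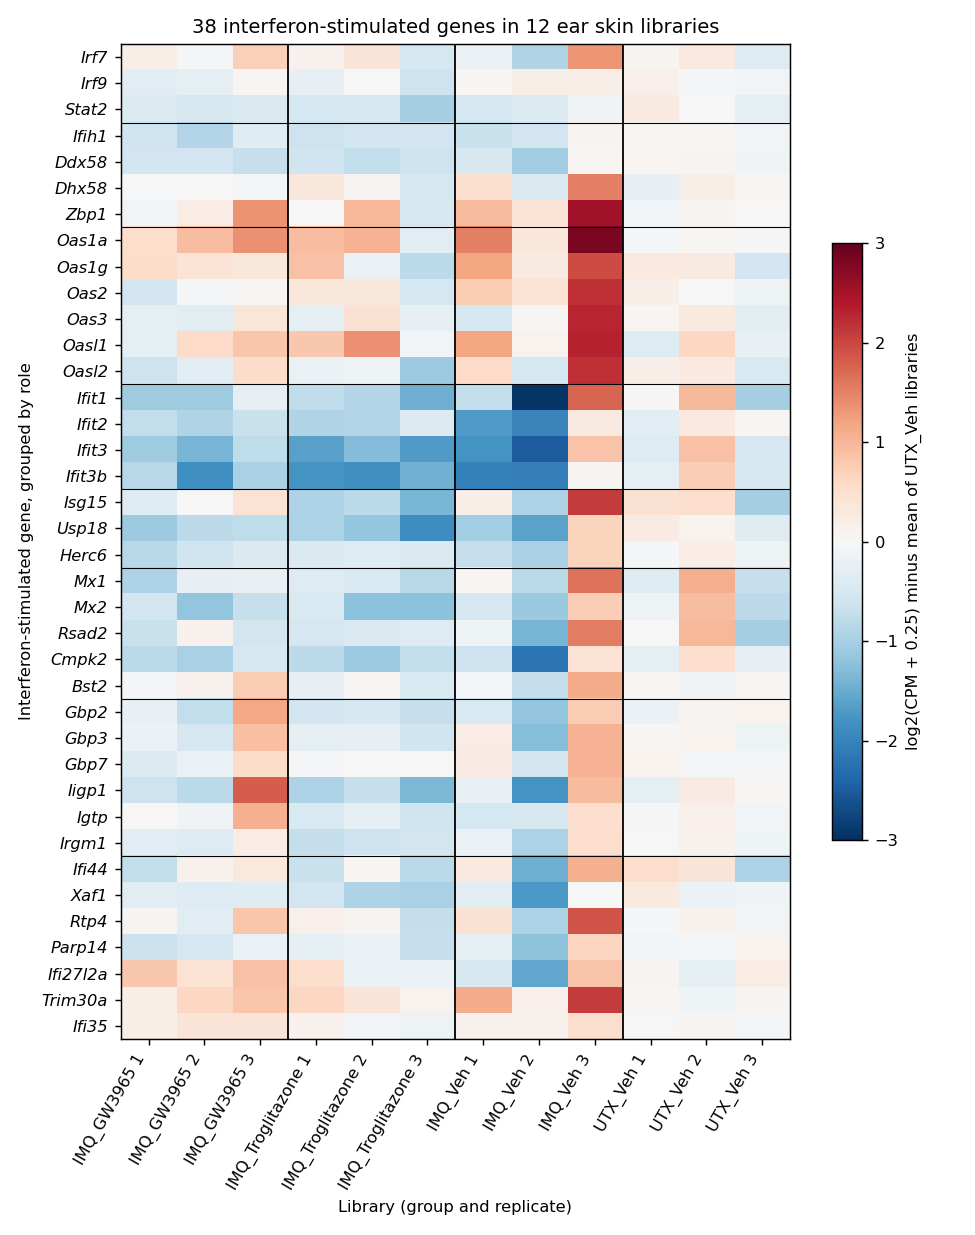
Each row is an interferon-stimulated gene, grouped by role, and each column a library; the colour is log2(CPM + 0.25) minus the mean of the UTX_Veh libraries, on a scale that ends at 3 in both directions. IMQ_Veh replicate 3 is red in most rows (the highest IMQ_Veh library for 37 of 38 genes) and IMQ_Veh replicate 2 blue in most, and the 4 Ifit rows are blue in the other 8 libraries with imiquimod.

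The genes at the ends of that order show what the ratio means in counts. Ifit1, which binds viral RNA caps and blocks translation, had 2.23, 0.282 and 13.5 CPM in IMQ_Veh, against 3.97, 7.73 and 1.79 CPM in UTX_Veh. Ifit3, a partner of Ifit1, had 3.53, 2.09 and 23.4 CPM in IMQ_Veh, against 9.83, 24.0 and 9.02 CPM in UTX_Veh. In both genes a single library of IMQ_Veh lay above the other 2 and overlapped or exceeded UTX_Veh. Oas3 had 0.830, 1.37 and 7.35 CPM in IMQ_Veh, against 1.38, 1.67 and 0.983 CPM in UTX_Veh, so its replicate 3 was 6.69 times the mean of the others. Isg15, which encodes a ubiquitin-like protein attached to other proteins, had 1.92, 0.764 and 8.03 CPM in IMQ_Veh, against 2.40, 2.55 and 0.726 CPM in UTX_Veh. At the other end, Ifi35 had 15.0, 15.0 and 19.8 CPM in IMQ_Veh, against 13.6, 14.5 and 13.1 CPM in UTX_Veh.

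Single libraries set against the range of UTX_Veh show the same split. Of the 38 members, IMQ_Veh replicate 3 lay above all 3 UTX_Veh libraries for 30 and below all of them for none, while 44.1% and 41.0% of all tested genes did so. IMQ_Veh replicate 2 lay above for 6 members and below for 28, and IMQ_Veh replicate 1 above for 12 and below for 16. The shares over all genes were 44.1% above and 45.0% below for replicate 2, and 45.0% above and 43.5% below for replicate 1, so that the 42.1% of members below UTX_Veh in replicate 1 was near the background. UTX_Veh itself was not even: its replicate 2 was the highest of the group for 25 members, against 37.0% of all genes. Its Ifit genes had a median ratio of replicate 2 over the mean of the others of 2.40, and Mx1 had 1.49, 4.60 and 1.15 CPM there. In IMQ_Troglitazone, replicate 3 was the lowest library for 27 members, against 38.6% of all genes.

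**Figure D2:**
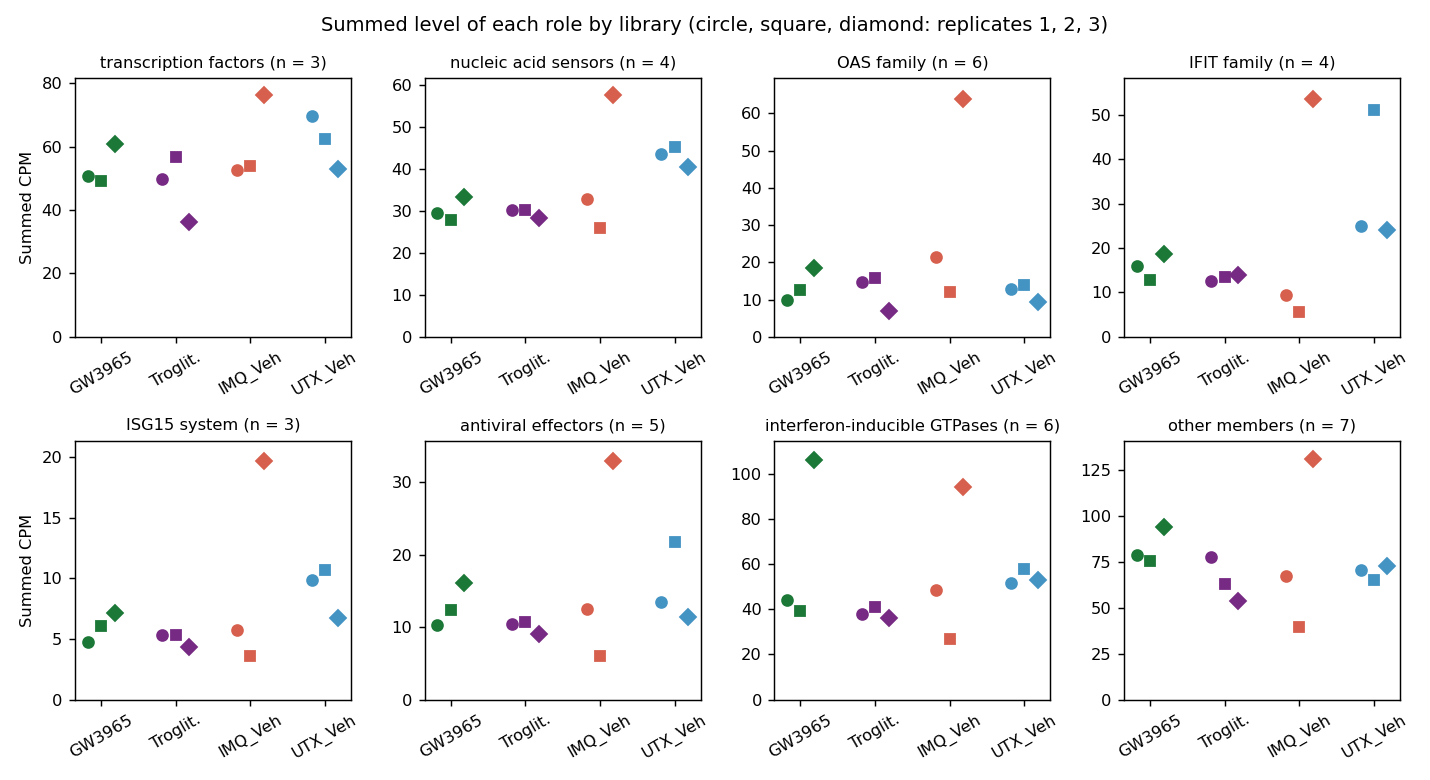
Summed CPM of the members of each role in every library, with 3 points a group for replicates 1, 2 and 3 (circle, square, diamond). The diamond of IMQ_Veh is highest in 7 of the 8 panels, and in the panel of the GTPases the diamond of IMQ_GW3965, at 106.4 CPM, lies above that of IMQ_Veh, at 94.4 CPM.

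Markers of several cell types moved with the members inside IMQ_Veh. The 12 monocyte and macrophage markers summed to 1185, 698.9 and 1624 CPM in IMQ_Veh replicates 1, 2 and 3, and all 12 were highest in replicate 3. Over the groups these sums ran from 947.2 to 1352 CPM in IMQ_GW3965, from 1171 to 1410 CPM in IMQ_Troglitazone, from 698.9 to 1624 CPM in IMQ_Veh and from 384.5 to 542.4 CPM in UTX_Veh. Fibroblast markers were highest in IMQ_Veh replicate 3 in 8 of 8 cases (4218, 1955 and 9505 CPM), endothelial markers in 7 of 7 (113.6, 51.0 and 202.6 CPM) and skeletal muscle markers in 10 of 10 (1582, 1589 and 6082 CPM). For muscle and endothelium, IMQ_Veh replicates 1 and 2 lay below every library of the other groups. Replicate 3 lay within the IMQ_Troglitazone range for muscle. Muscle sums ran from 6817 to 9830 CPM in IMQ_GW3965, 5011 to 7748 CPM in IMQ_Troglitazone and 12440 to 14410 CPM in UTX_Veh. In the same order, endothelial sums ran from 140.9 to 159.5, 140.5 to 154.6 and 142.7 to 198.0 CPM. Fibroblast sums ran from 2795 to 3405, 2919 to 4007 and 4387 to 7059 CPM. The 13 neutrophil markers summed to 9592, 10130 and 5788 CPM, of which S100a8 and S100a9 made up 9450, 9982 and 5638 CPM. The other 11 summed to 142.1, 143.9 and 150.8 CPM, and 5 of the 13 were highest in replicate 3. The 10 T and NK cell markers stayed between 19.0 and 20.2 CPM in the 3 IMQ_Veh libraries. Of the 10 keratinocyte markers 0 were highest in IMQ_Veh replicate 3, with sums of 72290, 50080 and 61530 CPM in replicates 1, 2 and 3. The 8 markers of plasmacytoid dendritic cells summed to 32.8, 28.1 and 66.0 CPM in IMQ_Veh. Cox6a2, which is also a muscle gene, made up 10.01, 15.4 and 44.08 CPM of this, and the other 7 summed to 22.8, 12.7 and 21.9 CPM. Without Cox6a2 the sums ran from 16.5 to 22.0 CPM in IMQ_GW3965, from 17.0 to 23.6 CPM in IMQ_Troglitazone, from 12.7 to 22.8 CPM in IMQ_Veh and from 13.5 to 19.8 CPM in UTX_Veh, and the defining marker Siglech was never above 1.75 CPM. In UTX_Veh most of these lists did not move with the members, for which replicate 2 was highest in 25 of 38 cases. There replicate 2 was the lowest library for 8 of 8 fibroblast, 10 of 12 monocyte and macrophage and 5 of 7 endothelial markers. It was the lowest for 1 of 10 skeletal muscle markers. The part of these markers in the level of the members was not tested.

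**Figure D3:**
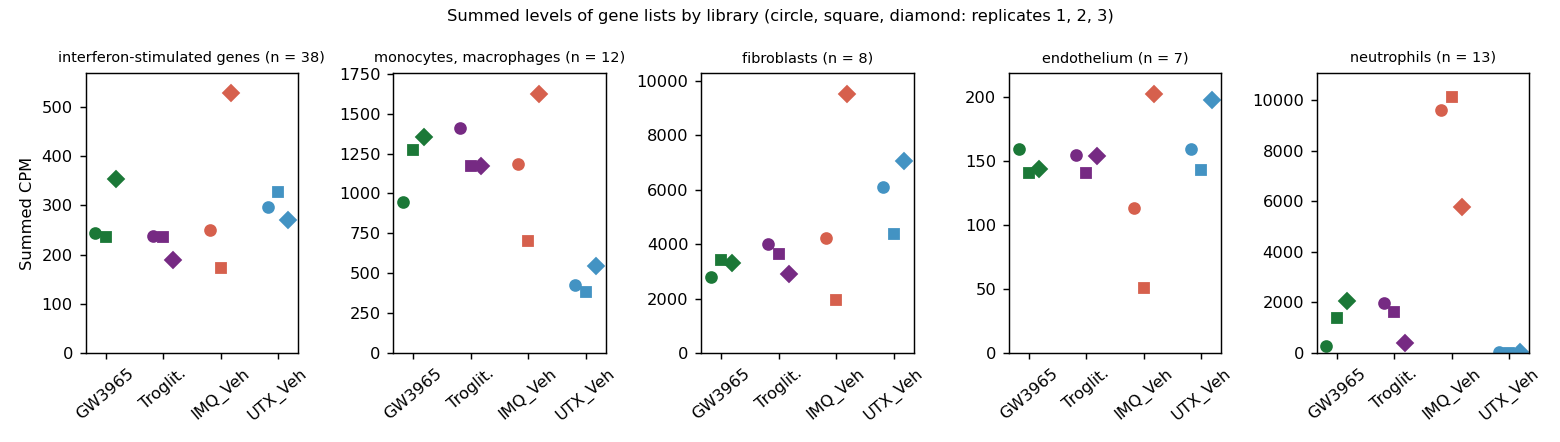
Summed CPM of the 38 members and of 4 marker lists in every library (circle, square and diamond for replicates 1, 2 and 3). In IMQ_Veh the diamond is highest for the members (529.3 CPM), the macrophage, the fibroblast and the endothelial lists, and lowest for the summed neutrophil list (5788 CPM), which S100a8 and S100a9 dominate.

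IMQ_Veh was set against UTX_Veh to compare skin with and without imiquimod in the label. With all libraries, of 38 members 6 rose and 0 fell at an adjusted p under 0.05, where 61.9% of all tested genes were changed (33.0% higher and 28.9% lower). The share of members called was below that background, and without IMQ_Veh replicate 3 the counts were 2 and 13. IMQ_Veh replicate 2 deviated in the other direction and was the lowest of the group for 33 of 38 members. The median log2 deviation of the members from the IMQ_Veh mean was -0.942 in replicate 2 and 1.081 in replicate 3. The fit without replicate 2 enters this comparison only in the ranges over left-out libraries given at the end. With all libraries the median log2 fold change of the members was 0.20, with 0.01 over all genes. The 6 genes were 4 of the 6 Oas genes, the sensor Zbp1 and Trim30a. Under upper-quartile scaling, which lowers the median of all genes to -0.11, 4 members rose (Oas1a, Oas2, Zbp1 and Trim30a) and 3 fell (Stat2, Ifih1 and Ddx58). The share of all genes called under that scaling is not given.

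The Oas enzymes make short adenylate chains that switch on the RNA-cutting enzyme RNase L. Oas1a had 4.77, 2.01 and 12.4 CPM in IMQ_Veh, against 1.494, 1.588 and 1.495 CPM in UTX_Veh. All 3 IMQ_Veh libraries were above all 3 of UTX_Veh, as they were for 34.7% of all genes and 5 of the 38 members. All 3 were below UTX_Veh for 32.1% of all genes and 0 members. The log2 fold change was 2.05 ± 0.58 (SE), with an edgeR adjusted p of 0.00886. Oas2 had 4.72, 3.74 and 13.1 CPM in IMQ_Veh, against 3.07, 2.68 and 2.39 CPM in UTX_Veh. These groups did not overlap either, and the log2 fold change was 1.40 ± 0.43 (edgeR adjusted p = 0.0145). Oas1g, a near copy of Oas1a, had 2.02, 0.965 and 3.67 CPM in IMQ_Veh, against 0.983, 0.961 and 0.427 CPM in UTX_Veh. Oasl1, which in mouse holds back the translation of Irf7, had 1.56, 0.603 and 3.67 CPM in IMQ_Veh, against 0.354, 0.961 and 0.427 CPM in UTX_Veh. The groups overlapped for both genes, whose log2 fold changes were 1.46 ± 0.57 (edgeR adjusted p = 0.0403) for Oas1g and 1.72 ± 0.68 (edgeR adjusted p = 0.0435) for Oasl1. Oas3 and Oasl2 did not pass the test.

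Zbp1 senses Z-form nucleic acid and can trigger necroptosis. It had 2.65, 1.73 and 8.29 CPM in IMQ_Veh, against 1.18, 1.34 and 1.24 CPM in UTX_Veh, a log2 fold change of 1.74 ± 0.62 (edgeR adjusted p = 0.0281). Trim30a, a mouse TRIM protein that restrains signalling downstream of Toll-like receptors, had 11.4, 5.71 and 22.7 CPM in IMQ_Veh, against 5.31, 4.64 and 5.43 CPM in UTX_Veh. Its log2 fold change was 1.37 ± 0.39 (edgeR adjusted p = 0.00907). In both genes every IMQ_Veh library was above every UTX_Veh library, and replicate 3 was again the highest by far. Some calls rested on single libraries: without UTX_Veh replicate 1, 3 members rose, and the calls of Oas1g, Oasl1 and Zbp1 were lost (edgeR adjusted p = 0.0619, 0.134 and 0.0756). The share of all genes called in that fit is not given. Of 21 alternative settings, the call held in 21 for Trim30a, in 20 for Oas1a and in 19 for Oas2. It held in 15 for Zbp1 and in 9 each for Oas1g and Oasl1. Reads that match near-identical copies are divided by RSEM, so the values of Oas1a and Oas1g, of Ifit3 and Ifit3b, of the Gbp genes and of Trim30a are uncertain to that extent.

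**Figure D4:**
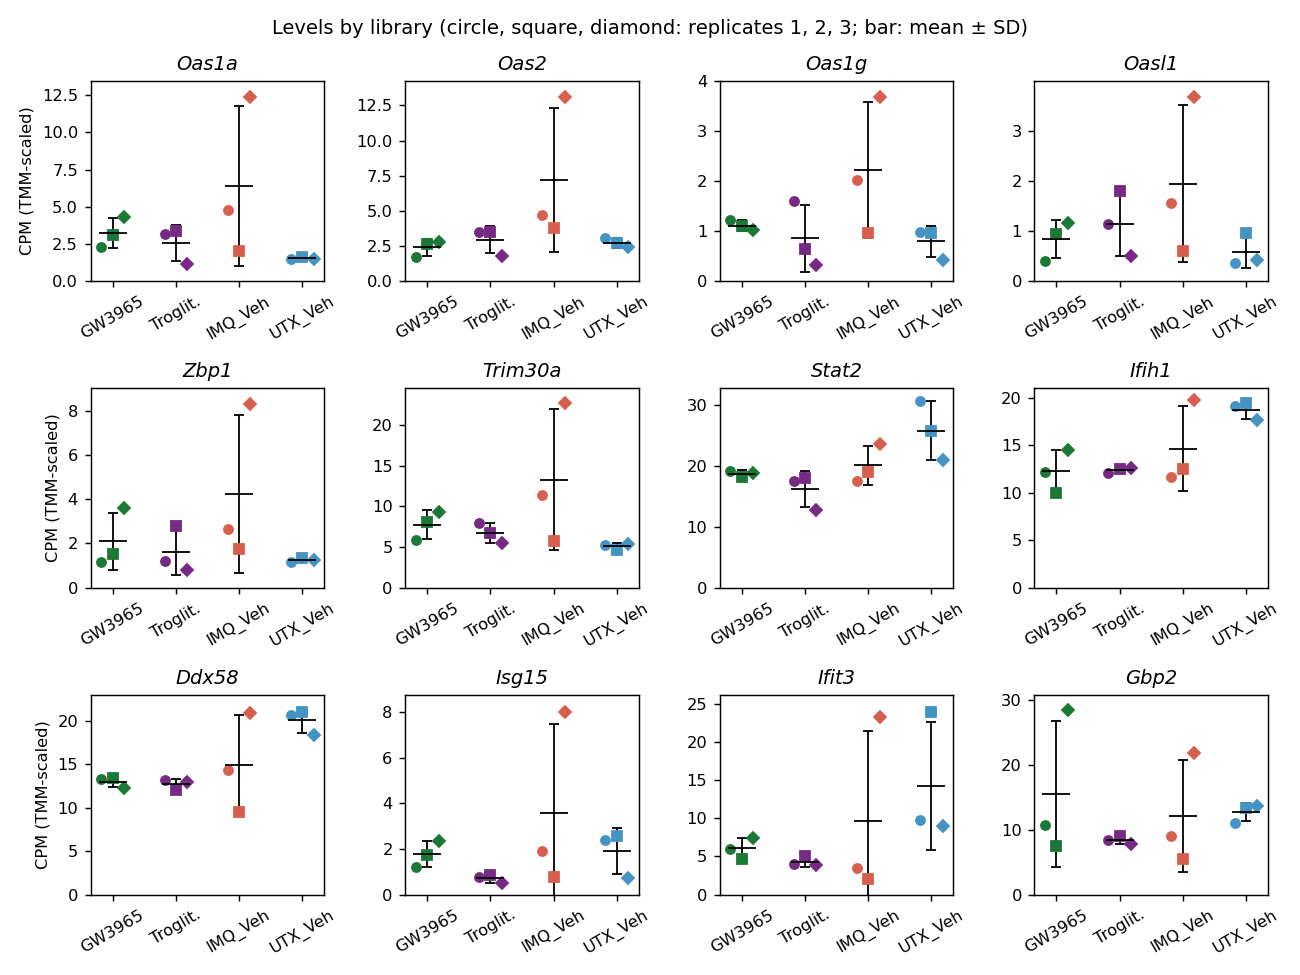
CPM of 12 members in every library (circle, square and diamond for replicates 1, 2 and 3), with the mean as a bar and the SD as whiskers that are cut off at 0. Oas1a, Oas2, Zbp1 and Trim30a are above all UTX_Veh libraries in all 3 IMQ_Veh libraries. Stat2, Ifih1 and Ddx58 are below all UTX_Veh libraries in all 6 libraries with an agonist and in IMQ_Veh replicates 1 and 2.

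Without IMQ_Veh replicate 3 the same comparison pointed mostly the other way. That library was the highest of IMQ_Veh for 37 of 38 members, so leaving it out fixed a downward shift in advance. The counts and adjusted p without it are a description and no independent test. Of 38 members, 2 rose and 13 fell, where 64.4% of all tested genes were changed (33.3% higher and 31.1% lower), and the median log2 fold change of the members was -0.54. The share of members that fell was near that of all genes, and the share that rose was well below it. Oas1a and Trim30a were the 2 that rose, by 1.14 and 0.74 on the log2 scale with edgeR adjusted p of 0.0464 and 0.0368. Over all 21 alternatives the adjusted p of Oas1a ran from 0.000619 to 0.0532 and that of Trim30a from 0.000473 to 0.045. The log2 fold changes of Oas2 and Zbp1 were then 0.64 and 0.80 and no longer passed the test, nor did those of Oas1g (0.89) and Oasl1 (0.87).

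All 4 Ifit genes were among the 13 that fell without replicate 3. Ifit2, an RNA-binding protein of the same family, had 2.96, 2.37 and 12.4 CPM in IMQ_Veh, against 7.98, 12.5 and 10.5 CPM in UTX_Veh. Its log2 fold change was -0.82 ± 0.48 with all libraries (edgeR adjusted p = 0.158) and -1.95 ± 0.24 without replicate 3. Ifit3b had 0.778, 0.764 and 4.25 CPM in IMQ_Veh, against 3.26, 6.81 and 2.78 CPM in UTX_Veh. Its log2 fold change was -1.17 with all libraries and -2.46 without replicate 3. For Ifit3 these values were -0.57 and -2.35, and for Ifit1 0.23 and -1.89. Replicates 1 and 2 of IMQ_Veh were below all UTX_Veh libraries for Ifit2, Ifit3 and Ifit3b, and replicate 3 was within their range.

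The other 9 were Stat2, the RNA sensor genes Ifih1 and Ddx58, Usp18, Herc6, Cmpk2, Xaf1, Parp14 and Ifi27l2a. Usp18, which removes Isg15 from proteins and dampens the type I receptor, had a log2 fold change of -0.40 with all libraries and -1.54 without replicate 3. Herc6, the mouse ligase that attaches Isg15, had -0.17 and -0.91. Cmpk2, a mitochondrial nucleotide kinase, had -0.55 and -1.43. The 6 GTPase genes had no call with all libraries or without replicate 3, with a median of -0.04 with all libraries and -0.53 without replicate 3. Leaving out both IMQ_Veh replicate 3 and IMQ_GW3965 replicate 3 gave 1 member higher and 16 lower, where 31.4% of all genes were higher and 32.5% lower.

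**Figure D5:**
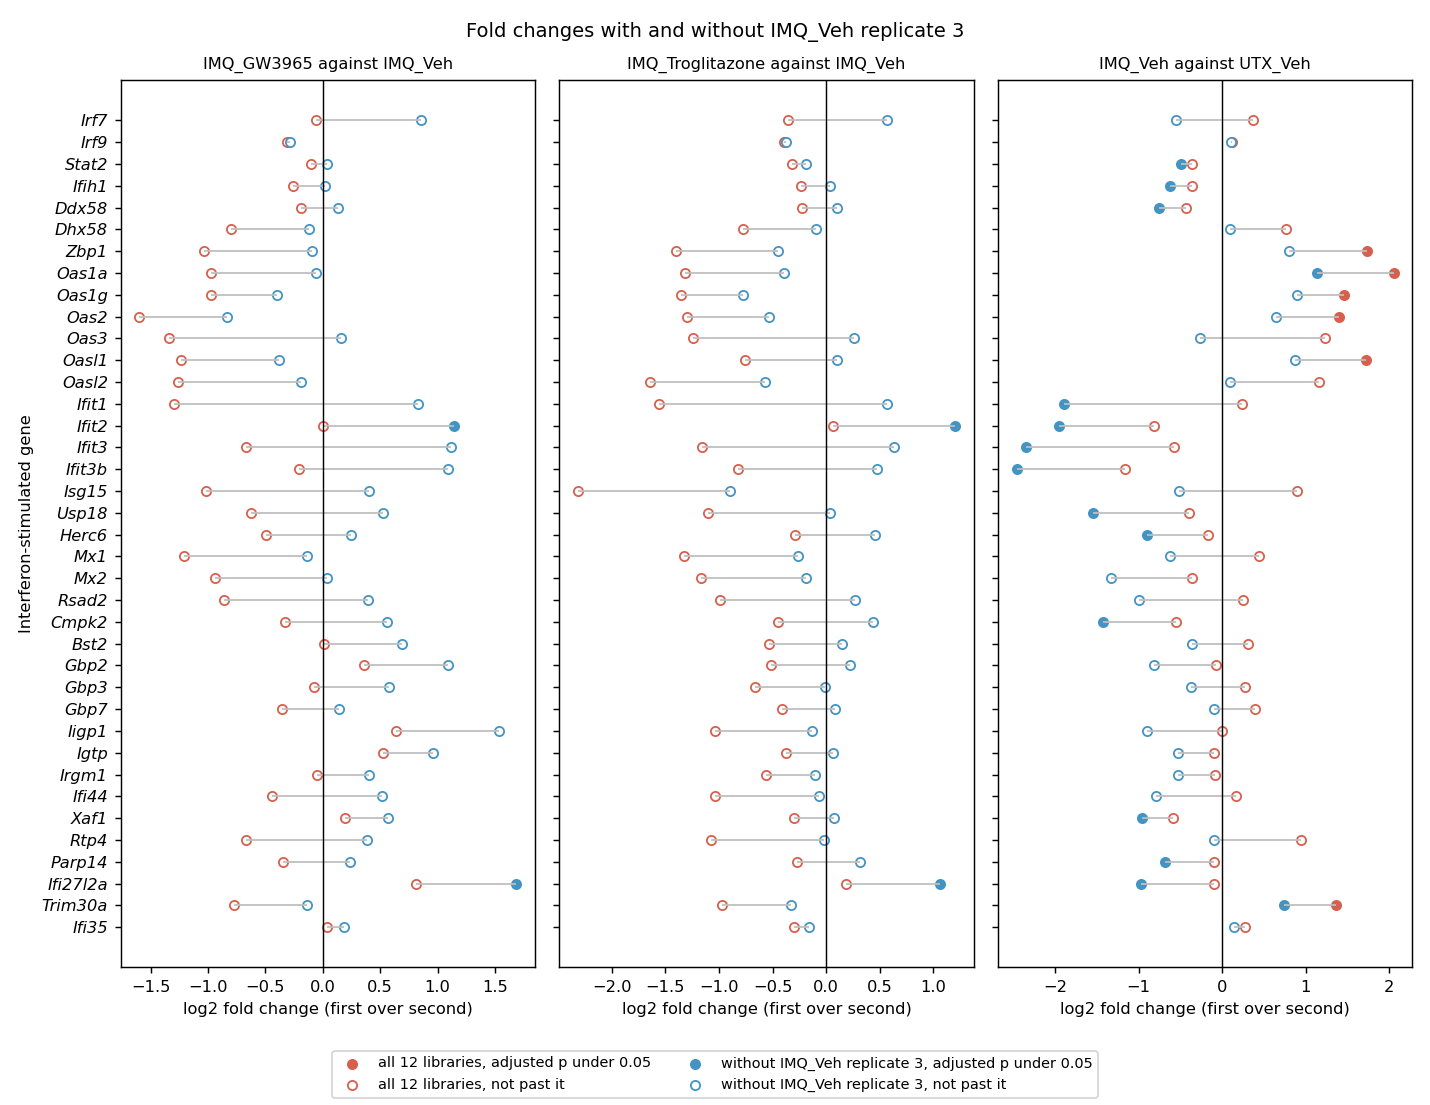
Log2 fold change of each member in 3 comparisons, with all 12 libraries (red) and without IMQ_Veh replicate 3 (blue); filled points passed an adjusted p under 0.05 in edgeR. For IMQ_Veh against UTX_Veh the filled red points number 6, all right of 0, and the filled blue points 15, of which 13 lie left of 0.

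The agonists were set against IMQ_Veh to ask whether they alter these genes under imiquimod. No member passed in edgeR for either drug. For IMQ_GW3965 against IMQ_Veh, 0 of 38 members were called, where 6.59% of all tested genes were (3.71% higher and 2.88% lower); 1 member had an unadjusted p under 0.05, and DESeq2 called 1, which was Oas2, among 13.0% of all genes. For IMQ_Troglitazone against IMQ_Veh, 0 members were called against 9.34% of all genes (4.69% higher and 4.65% lower); 9 had an unadjusted p under 0.05, and DESeq2 called 3, which were Isg15, Oas2 and Oasl2, among 15.1% of all genes. The median log2 fold change of the members was -0.40 with GW3965 and -0.77 with troglitazone, with -0.01 and -0.02 over all genes. These 2 comparisons share the IMQ_Veh libraries.

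Oas2 came closest with GW3965. It had 1.72, 2.65 and 2.77 CPM in IMQ_GW3965, against 4.72, 3.74 and 13.1 CPM in IMQ_Veh, so that the groups did not overlap, as was so for 12.0% of all genes in this direction. The log2 fold change was -1.60 ± 0.45 (edgeR adjusted p = 0.0529). In IMQ_Troglitazone it had 3.47, 3.49 and 1.81 CPM, a log2 fold change against IMQ_Veh of -1.30 ± 0.43 (edgeR adjusted p = 0.0785). Oas2 and Irf9 were the members with no overlap in the lower direction with troglitazone, as 14.0% of all genes were. Isg15 had 0.762, 0.873 and 0.493 CPM in IMQ_Troglitazone, against 1.92, 0.764 and 8.03 CPM in IMQ_Veh. The groups overlapped, and the log2 fold change was -2.32 ± 0.76 (edgeR adjusted p = 0.0749).

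Without IMQ_Veh replicate 3, 2 members rose and 0 fell with each drug, where 20.8% of all genes were changed for GW3965 (12.3% higher and 8.49% lower) and 25.5% for troglitazone (14.3% higher and 11.2% lower). The shares of members that rose were below these backgrounds. The 2 genes were Ifit2 and Ifi27l2a in both cases. Ifit2 had 6.01, 5.35 and 6.29 CPM in IMQ_GW3965 and 5.33, 5.38 and 7.59 CPM in IMQ_Troglitazone, against 2.96 and 2.37 CPM in IMQ_Veh replicates 1 and 2. Ifi27l2a had 36.9, 28.3 and 38.5 CPM in IMQ_GW3965 and 30.2, 18.4 and 18.5 CPM in IMQ_Troglitazone, against 14.7 and 6.92 CPM in those replicates. The medians over the members were then 0.31 for GW3965 and 0.04 for troglitazone. An upward shift was fixed in advance by leaving out the IMQ_Veh library that was highest for most members. Without IMQ_Veh replicate 2 the members called were lower instead, with 4.18% of all genes changed for GW3965 and 6.38% for troglitazone, not split by direction. Oas2 and Trim30a then fell with GW3965, a share of the 38 members near that of all genes changed. Isg15, Oas1a, Oas2, Oasl2, Trim30a and Irgm1 fell with troglitazone, a share above that of all genes changed. Without IMQ_Troglitazone replicate 3, which changes the shared estimate of the spread, Oas2 fell with GW3965 (edgeR adjusted p = 0.0458).

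Between the agonists, whose doses differ, no member was called. In IMQ_GW3965 against IMQ_Troglitazone 0 of 38 passed edgeR, where 1.86% of all genes did (1.08% higher and 0.782% lower), 3 had an unadjusted p under 0.05 and DESeq2 called 0. The median log2 fold change was 0.32, with 0.01 over all genes, and 0.06 without IMQ_GW3965 replicate 3. That library was the highest of its group for 30 members, against 34.3% of all genes, and 11.6% of its counts fell on the feature ENSMUSG00000119584, which took 0.138% or less in the other 11 libraries. The GTPase genes were highest in it. Iigp1, an immunity-related GTPase induced strongly by interferon gamma, had 4.07, 3.53 and 23.1 CPM in IMQ_GW3965, against 3.26, 3.88 and 2.34 CPM in IMQ_Troglitazone. Gbp2, a guanylate-binding protein that attacks pathogen vacuoles, had 10.8, 7.43 and 28.4 CPM in IMQ_GW3965, against 8.47, 9.02 and 7.80 CPM in IMQ_Troglitazone. Igtp had 7.10, 6.45 and 15.1 CPM in IMQ_GW3965 and 4.99, 5.72 and 4.51 CPM in IMQ_Troglitazone, with no overlap, as was so for 14.1% of all genes in this direction. Its log2 fold change was 0.90 ± 0.34 (edgeR adjusted p = 0.219). The 6 GTPase genes had a median ratio of 2.32 between replicate 3 and the mean of the other IMQ_GW3965 libraries, against 1.31 for the Ifit genes.

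Set against UTX_Veh, both agonist groups were lower in Stat2 and in the RNA sensor genes Ifih1 and Ddx58, as were IMQ_Veh replicates 1 and 2. In IMQ_GW3965 against UTX_Veh 0 members rose and 3 fell, where 50.2% of all genes were changed, 28.7% higher and 21.5% lower. In IMQ_Troglitazone against UTX_Veh 0 rose and 5 fell, where 45.3% of all genes were changed, 26.5% higher and 18.8% lower. The shares of members called lower were below these backgrounds. The other 2 nucleic acid sensors, Dhx58 and Zbp1, had log2 fold changes of -0.04 and 0.70 with GW3965 and -0.01 and 0.34 with troglitazone and did not pass. Both comparisons share the UTX_Veh libraries. The medians over the members were -0.13 for GW3965 and -0.48 for troglitazone, with -0.01 and 0.01 over all genes.

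Stat2, the subunit that carries the activating part of the type I complex, had 19.2, 18.2 and 18.9 CPM in IMQ_GW3965 and 17.6, 18.1 and 12.8 CPM in IMQ_Troglitazone, against 30.74, 25.87 and 21.02 CPM in UTX_Veh. All 6 libraries with an agonist were below all of UTX_Veh, and the log2 fold changes were -0.46 ± 0.17 for GW3965 (edgeR adjusted p = 0.0382) and -0.68 ± 0.17 for troglitazone (edgeR adjusted p = 0.00712). Ifih1, which encodes the sensor MDA5, had 12.2, 9.98 and 14.5 CPM in IMQ_GW3965 and 12.1, 12.5 and 12.6 CPM in IMQ_Troglitazone, against 19.1, 19.4 and 17.7 CPM in UTX_Veh. It was lower by -0.62 ± 0.19 on the log2 scale with GW3965 (edgeR adjusted p = 0.0183) and by -0.60 ± 0.19 with troglitazone (edgeR adjusted p = 0.0236). Ddx58, which encodes the sensor RIG-I, had 13.3, 13.4 and 12.3 CPM in IMQ_GW3965 and 13.2, 12.0 and 12.9 CPM in IMQ_Troglitazone, against 20.7, 21.1 and 18.4 CPM in UTX_Veh. Its log2 fold changes were -0.63 ± 0.21 (edgeR adjusted p = 0.0284) for GW3965 and -0.66 ± 0.21 (edgeR adjusted p = 0.0248) for troglitazone. In IMQ_Veh these 3 genes had log2 fold changes against UTX_Veh of -0.36, -0.36 and -0.43, which did not pass the test with all libraries. Their IMQ_Veh levels were 17.6, 19.1 and 23.7 CPM for Stat2, 11.6, 12.5 and 19.7 CPM for Ifih1 and 14.3, 9.53 and 20.9 CPM for Ddx58. Replicates 1 and 2 were thus also below all UTX_Veh libraries, so the lower level was not particular to the agonist groups.

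Ifit3b and Usp18 were the other 2 that fell in IMQ_Troglitazone. Ifit3b had 0.974, 0.921 and 1.31 CPM there, against 3.26, 6.81 and 2.78 CPM in UTX_Veh, a log2 fold change of -1.99 ± 0.62 (edgeR adjusted p = 0.0219). Usp18 had 1.23, 1.02 and 0.534 CPM in IMQ_Troglitazone, against 3.15, 2.80 and 1.97 CPM in UTX_Veh, a log2 fold change of -1.51 ± 0.56 (edgeR adjusted p = 0.0452). With GW3965 the values were 2.13, 0.936 and 1.89 CPM for Ifit3b and 1.09, 1.40 and 1.42 CPM for Usp18, all below the UTX_Veh libraries, and neither passed the test. No overlap in the lower direction was seen for 11 members with GW3965 and 16 with troglitazone, against 31.8% and 29.8% of all genes. In the higher direction it was seen for 5 members with GW3965 and 1 (Trim30a) with troglitazone, against 34.9% and 32.7% of all genes.

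These counts moved with the libraries. For the left-out libraries the shares over all genes are not given, so the counts do not tell a shift of the members from a shift of all genes. For GW3965, 0 members were called without UTX_Veh replicate 1 or 2, 1 without IMQ_GW3965 replicate 2 (Ddx58) or 3 (Ifih1), 5 without IMQ_Veh replicate 2 and 11 without IMQ_Veh replicate 3 (3 higher and 8 lower). For troglitazone, 2 were called without UTX_Veh replicate 1, 1 without UTX_Veh replicate 2, 1, 2 and 3 without IMQ_Troglitazone replicates 1, 2 and 3, 9 without IMQ_Veh replicate 2 and 11 without IMQ_Veh replicate 3. The IMQ_Veh libraries enter these comparisons through the shared estimate of the spread. In fits of only the 2 groups compared, 4 members rose and 10 fell with GW3965 and 17 fell with troglitazone, where 60.5% and 53.9% of all genes were changed. The 4 that rose with GW3965 were Oas1a, Trim30a, Ifi27l2a and Ifi35.

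The interferon genes were at the limit of detection in all 12 libraries. Of 21 listed interferon genes 15 had 0 counts throughout, among them Ifnb1 and Ifnk, and a count of 0 allows up to 3 counts, or 0.117 to 0.164 CPM per library. The 17 type I genes other than Ifnz had 4 counts in all libraries together, Ifng had 4, the type III genes Ifnl2 and Ifnl3 had 0 and Ifnz had 30. At this depth no difference in interferon mRNA was detectable, and in IMQ_Veh replicate 3 the only count was 1 for Ifnz. Intervals and floors of this kind cover counting error only.

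The receptors and JAK-STAT genes were measured well, and the type I receptor chains did not pass the test in any comparison. Ifnar1 averaged 43.4 ± 1.26 CPM in IMQ_Veh and 39.5 ± 3.38 CPM in UTX_Veh, and Ifnar2 averaged 20.9 ± 4.56 CPM in IMQ_Veh and 16.8 ± 2.65 CPM in UTX_Veh (SD, n = 3 each). Of the 15 tested genes among the 36 of the interferon, receptor and JAK-STAT list, 7 rose and 2 fell in IMQ_Veh against UTX_Veh, where 33.0% of all genes were higher and 28.9% lower. The largest were the feedback inhibitors of JAK signalling. Socs3 had 96.4, 131.1 and 146.6 CPM in IMQ_Veh, against 39.1, 26.7 and 26.5 CPM in UTX_Veh, a log2 fold change of 2.02 ± 0.35 (edgeR adjusted p = 0.000457). Socs1 had 13.8, 18.4 and 9.34 CPM in IMQ_Veh, against 3.70, 3.22 and 3.55 CPM in UTX_Veh, a log2 fold change of 1.99 ± 0.40 (edgeR adjusted p = 0.00116). Within IMQ_Veh Socs1 was lowest in replicate 3 and highest in replicate 2, the reverse of most members. The receptor genes Ifngr2 (0.98), Il10rb (0.46) and Ifngr1 (0.41) rose, as did the phosphatase gene Ptpn2 (0.95). Ifnlr1, a chain of the type III receptor, fell by 0.56, and the kinase gene Tyk2 fell by 0.23. The call of Ifngr1 was lost without IMQ_GW3965 replicate 2, IMQ_Veh replicate 2 or UTX_Veh replicate 2 or 3, and that of Tyk2 without UTX_Veh replicate 1 or 2. With GW3965 against IMQ_Veh, Jak2 fell by 0.43 (edgeR adjusted p = 0.0487), and with troglitazone Socs3 fell by 1.24 (edgeR adjusted p = 0.0449), at 60.6, 74.3 and 23.5 CPM in IMQ_Troglitazone. Neither call was stable. That of Jak2 was lost when any of the 12 libraries was left out (edgeR adjusted p from 0.0543 to 0.184). That of Socs3 was lost in 10 of these 12 fits, all but those without IMQ_Veh replicate 3 or IMQ_Troglitazone replicate 2 (edgeR adjusted p from 0.0373 to 0.0911).

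Upstream of interferon, 16 of the 28 tested genes of the TLR7 and nucleic acid sensing list rose and 0 fell in IMQ_Veh against UTX_Veh, where 33.0% of all genes were higher and 28.9% lower, with a median log2 fold change of 0.43. Without IMQ_Veh replicate 3 the counts were 15 and 1, where 33.3% of all genes were higher and 31.1% lower. Myd88, the adaptor of most Toll-like receptors, had 87.4, 109.4 and 80.4 CPM in IMQ_Veh, against 32.9, 33.2 and 27.0 CPM in UTX_Veh, a log2 fold change of 1.58 ± 0.18 (edgeR adjusted p = 2.01e-05). Tlr8 (1.56), Irak3 (1.28), Unc93b1 (1.17), which carries these receptors to endosomes, and Sting1 (1.07) followed in size, and of these Tlr8 lost its call without IMQ_Veh replicate 3 or UTX_Veh replicate 1 (highest edgeR adjusted p = 0.0567). Tlr7 itself had 5.14, 2.82 and 9.60 CPM in IMQ_Veh, against 3.58, 4.10 and 4.19 CPM in UTX_Veh, and did not pass the test. In IMQ_Troglitazone it had 8.89, 5.87 and 11.1 CPM, a log2 fold change against UTX_Veh of 1.13 ± 0.36 (edgeR adjusted p = 0.0247) whose call was lost without IMQ_Troglitazone replicate 1 or 3 or any of the UTX_Veh libraries. Irf1 did not pass in any comparison. With GW3965 against IMQ_Veh 3 genes of this list fell, Ikbke by 0.42, Ikbkb by 0.36 and Irak4 by 0.36 on the log2 scale, and with troglitazone 0 were called in edgeR, with 6 at an unadjusted p under 0.05. Over all genes, 2.88% were lower with GW3965 and 9.34% were changed with troglitazone. With each library left out in turn, 0 to 5 genes of the list were lower and 0 higher for GW3965. The 5 came without IMQ_Veh replicate 3, where 8.49% of all genes were lower, and 0 were called without IMQ_GW3965 replicate 1 or 2 or IMQ_Veh replicate 1. The call of Ikbkb held in 9 of the 12 fits, that of Ikbke in 3 and that of Irak4 in 2. For troglitazone 1 gene was higher and 3 lower without IMQ_Veh replicate 3, 1 was higher without IMQ_Veh replicate 2, and 0 were called in the other 10 fits. In the fit without IMQ_Veh replicate 3, 14.3% of all genes were higher and 11.2% lower for troglitazone.

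A second set of 53 interferon-stimulated genes, none of them among the 38, was mixed. Of 51 tested, 8 rose and 6 fell in IMQ_Veh against UTX_Veh, where 33.0% of all genes were higher and 28.9% lower, with a median log2 fold change of 0.04. With IMQ_Veh replicate 3 left out the counts were 7 and 19, where 33.3% of all genes were higher and 31.1% lower. Ifitm1, a membrane protein that blocks viral entry, had 24.28, 19.1 and 24.98 CPM in IMQ_Veh, against 2.95, 2.05 and 3.46 CPM in UTX_Veh. The log2 fold change was 3.01 ± 0.24 (edgeR adjusted p = 2.67e-06), and the 3 IMQ_Veh libraries were close to each other. With GW3965 Ifitm1 had 7.41, 7.90 and 7.98 CPM and with troglitazone 12.2, 8.39 and 6.65 CPM. It fell relative to IMQ_Veh by 1.55 ± 0.23 with GW3965 (edgeR adjusted p = 0.00644) and by 1.33 ± 0.22 with troglitazone (edgeR adjusted p = 0.0108), the only gene of the 51 called for each drug with all libraries. Both calls held with each of the 12 libraries left out (edgeR adjusted p up to 0.0441 for GW3965 and 0.0473 for troglitazone). With all libraries, 2.88% of all genes were lower with GW3965 and 4.65% with troglitazone. Without IMQ_Veh replicate 3, 4 of the 51 rose and 1 fell with GW3965, where 12.3% of all genes were higher and 8.49% lower. In the same fit 4 rose and 2 fell with troglitazone, where 14.3% of all genes were higher and 11.2% lower. The shares of the 51 were below these backgrounds. Ifi209 (2.48), Ifitm3 (1.71), Samhd1 (1.62) and Ifi204 (1.38) were the next largest that rose with imiquimod, Ifi204 with overlapping groups and no call without IMQ_Veh replicate 3 or UTX_Veh replicate 1 (highest edgeR adjusted p = 0.0796). Trim34a fell by 1.40 and Gbp4 by 1.02. Tap1 and Tap2, which load peptides on MHC class I, fell by 0.59 and 0.64 on the log2 scale. The call of Gbp4 was lost without IMQ_Veh replicate 1 or 2 or any of the UTX_Veh libraries, and that of Tap1 without UTX_Veh replicate 1 or 3. Cxcl10, a chemokine induced by interferon, had 0.882, 0.885 and 2.94 CPM in IMQ_Veh, against 0.708, 2.05 and 0.940 CPM in UTX_Veh, and did not pass the test.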

How the data were processed

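Polyadenylated RNA of mouse ear skin was sequenced from stranded libraries in 4 groups of 3. Per the submitters' processing notes, reads were checked and trimmed with FastQC and Trim Galore, aligned with STAR 2.7.3a and quantified with RSEM 1.3.3 on GRCm38, with strand and other settings not given in the sources used here. By RSEM the authors made estimated counts (the RSEM expected count of each gene) and TPM, per the submitters' processing notes, and deposited them per library. Symbols came from GENCODE M21 for 52083 of 55416 identifiers. Expected counts were rounded and tested with edgeR 4.0.16 (R 4.3.3, limma 3.58.1): TMM scaling, filterByExpr, quasi-likelihood test over 12 libraries in 1 fit, Benjamini-Hochberg adjustment over 17130 genes, threshold 0.05. CPM are TMM-scaled. TPM as deposited by the authors served for levels between genes. DESeq2 1.42.0, other scalings, filters, designs and left-out libraries were alternatives. The scripts were tested on simulated data. Members, gene lists and named genes were chosen with earlier results of these data known; genes are named from the members, and from the listed genes by the size of called changes, with receptors, Tlr7, Irf1 and Cxcl10 added after their values were seen. No 2 libraries were duplicates. A gene of the JAK-STAT list is not reported here.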

Additional observations from a re-analysis of the deposited data

How the results depend on the processing

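No call of a member was reversed in any of the 21 alternatives. Counts of changed members moved more. The counts in this section are given without the share over all genes in each setting. They therefore do not tell a shift of the members from a shift of all genes. For IMQ_Veh against UTX_Veh, 3 members were called with the lane field of the file names as a covariate, and 17 (1 higher, 16 lower) with IMQ_Veh replicate 3 and IMQ_GW3965 replicate 3 both left out, an alternative chosen after seeing the data. With that alternative the counts were 2 for each agonist against IMQ_Veh, 8 for IMQ_GW3965 against UTX_Veh (median log2 fold change -0.42) and 14 for IMQ_Troglitazone against UTX_Veh. With no low-count filter 1 member was called for each agonist against IMQ_Veh, and with DESeq2 1 for GW3965 and 3 for troglitazone. Fits of only the 2 groups compared called 14 members for IMQ_GW3965 and 17 for IMQ_Troglitazone against UTX_Veh. The cause of these shifts was not tested. Each lane field holds too few libraries of a group for a test within it.

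Leaving out each library in turn gave 3 to 15 calls and medians from -0.54 to 0.52 for IMQ_Veh against UTX_Veh, 0 to 2 calls and -0.81 to 0.31 for IMQ_GW3965 against IMQ_Veh, and 0 to 6 calls and -1.16 to 0.04 for IMQ_Troglitazone against IMQ_Veh. For IMQ_GW3965 against IMQ_Troglitazone it gave 0 to 0 calls and 0.06 to 0.42, for IMQ_GW3965 against UTX_Veh 0 to 11 and -0.422 to 0.059, and for IMQ_Troglitazone against UTX_Veh 1 to 11 and -0.58 to -0.33. The replicate numbers were not treated as pairs in the main fit. Same-numbered libraries of different groups had correlations of -0.221 to 0.312, with 4 of 18 above 0.1. The other pairs had -0.298 to 0.347, with 2 of 36 above 0.1. With 3 libraries a group these values cannot settle whether the numbers pair the libraries. With the replicate number as a block, 5 members rose for IMQ_Veh against UTX_Veh, 0 were called in the 3 comparisons among imiquimod groups, and 2 and 4 fell for IMQ_GW3965 and IMQ_Troglitazone against UTX_Veh. Members near 1 CPM rest on few counts per library, which limits their precision.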
